A study of Mus musculus with 6 samples.

Results

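Binding of phosphorylated Smad2 (pSmad2) was examined at 6 of the 22350 protein-coding genes of the mm9 assembly. They encode Nodal, Gdf3, the Activin subunits, the Nodal coreceptor Cripto and the extracellular Activin antagonist follistatin. The 6 genes, Nodal, Tdgf1, Gdf3, Inhba, Inhbb and Fst, were chosen by name and not by their tags, and each was taken with 20 kb on either side of its annotated bounds. E14 TG2A mouse embryonic stem (ES) cells, a feeder-independent line, were all first held for 6 h in 10 µM SB-431542 (SB), an inhibitor of the type I receptors for Activin, Nodal and TGF-β. They were then kept for 18 h in 25 ng/ml Activin, in the DMSO carrier at 1/5000, or in 10 µM SB, in medium with Knockout Serum Replacement and without LIF. From each of the 3 treatments there was 1 pSmad2 ChIP-Seq library and 1 input DNA library, so that every group was 1 library from 1 cell line, and the DMSO cells had only such ligand as they made themselves or the medium held. The tests below therefore compare libraries and cover counting error, not the spread between cultures. No RNA was sequenced, so the ES cell label could not be checked against marker genes, and binding is not a measure of expression.

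Nodal is a ligand of the TGF-β family that signals through the Activin receptors and needs the coreceptor Cripto, the product of Tdgf1, at the cell surface. Gdf3 encodes a related ligand that also uses Cripto. Inhba and Inhbb encode the subunits that pair to form the Activins, and Fst encodes follistatin, which binds Activins and keeps them from their receptors. Receptor activation phosphorylates Smad2, which joins Smad4 in the nucleus, where Smad complexes bind CAGA motifs and the forkhead protein Foxh1 is a known partner. The first intron of Nodal is known to hold an enhancer through which Nodal signalling acts on its own gene.

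A tag is the aligned 35 bp end of a DNA fragment, and tags of the same position and strand were counted once. The ChIP libraries held 10537724 (Activin), 9713869 (DMSO) and 7805150 (SB) such tags, the inputs 9786787 to 11913742, and levels are given as normalised tags, the count per 10000000 tags of the library. Repeated positions made up 19.9% to 24.6% of the deposited ChIP tags against 5.64% to 6.94% of the input tags. The peaks of the 3 lists were joined into 12240 merged regions where they shared at least 1 bp, and 13 of these lay in the windows of the 6 genes. Nodal had 5, Tdgf1 6, Gdf3 1 and Fst 1, and Inhba and Inhbb had none. Within a gene they are numbered by their highest pileup of tags extended to 200 bp in any treatment, so that site 1 is the highest.

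The following stretches of 300 bp are centred on the highest pileup of 3 of the sites on which the results turn, and are given in mm9 on the plus strand. Capitals mark CAGA or its reverse complement TCTG, and matches of the Foxh1 motif TGTNNATT or its reverse complement AATNNACA. Nodal site 1 (chr10:60881901-60882200) lies in the first intron, Nodal site 3 (chr10:60878698-60878997) upstream of the gene, and Gdf3 site 1 (chr6:122557714-122558013) in the first intron.
Nodal site 1: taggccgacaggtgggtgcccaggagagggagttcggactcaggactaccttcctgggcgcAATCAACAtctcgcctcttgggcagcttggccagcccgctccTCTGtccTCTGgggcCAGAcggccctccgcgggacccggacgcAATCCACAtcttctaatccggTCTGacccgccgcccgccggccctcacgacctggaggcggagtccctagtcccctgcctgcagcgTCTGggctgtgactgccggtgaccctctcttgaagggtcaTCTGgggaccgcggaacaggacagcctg
Nodal site 3: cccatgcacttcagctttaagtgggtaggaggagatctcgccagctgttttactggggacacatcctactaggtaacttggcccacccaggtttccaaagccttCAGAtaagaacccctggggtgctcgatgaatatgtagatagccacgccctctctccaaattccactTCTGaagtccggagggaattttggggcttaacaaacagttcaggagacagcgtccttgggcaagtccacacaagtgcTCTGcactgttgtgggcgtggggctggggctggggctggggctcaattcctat
Gdf3 site 1: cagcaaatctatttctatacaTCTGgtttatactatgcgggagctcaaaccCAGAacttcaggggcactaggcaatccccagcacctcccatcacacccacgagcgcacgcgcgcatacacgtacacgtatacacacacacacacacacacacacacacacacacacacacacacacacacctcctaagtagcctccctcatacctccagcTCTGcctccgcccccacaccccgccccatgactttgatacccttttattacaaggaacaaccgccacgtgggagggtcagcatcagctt

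CAGA or TCTG occurred 6 times in the Nodal intron 1 stretch and 3 times at each of Nodal site 3 and Gdf3 site 1. The motif is short, and 97.6% of the 12240 stretches of 300 bp made in the same way held at least 1, with a median of 4. At least 6 were held by 24.0% of them. The Foxh1 motif was matched at 2 places in the Nodal intron 1 stretch, as AATCCACA beginning 3 bp before the highest pileup and as AATCAACA beginning 88 bp before it. It was matched neither at Nodal site 3 nor at Gdf3 site 1, and in 17.2% of all stretches. The octamer ATGCAAAT (reverse complement ATTTGCAT) and the palindrome GTCTAGAC were found in none of these 3 stretches, and in 1.72% and 0.654% of all stretches. The Gdf3 stretch held an unbroken run of 50 bp of alternating C and A, and 0.245% of all stretches held a run at least as long on either strand. These matches describe letters and not bound sites.

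The ligand gene Nodal (ENSMUSG00000037171.6, chr10:60880720-60888086, plus strand) had its strongest pSmad2 binding in intron 1. The merged region, chr10:60880620-60883533, covered exon 1 and the first part of intron 1, with its highest pileup 1330 bp into the gene at the same base in the Activin and the DMSO library. Cells in Activin, DMSO and SB gave 217, 149 and 80 ChIP tags there, or 206, 153 and 102 normalised tags. The 3 inputs gave 38.5, 40.3 and 29.6 normalised tags. The ChIP level was thus highest in Activin and lowest in SB, and above input in each treatment, as the peak calling required.

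The Activin level was 2.01 times the SB level (95% interval 1.55 to 2.63), and passed the two-sided exact binomial test with Benjamini-Hochberg adjustment over the 12240 regions (adjusted exact p = 3.90e-06). SB was 0.668 times DMSO (0.503 to 0.883, adjusted exact p = 0.0461), which was lost when tags were placed by their 5′ end (adjusted exact p = 0.0550). These tests used ChIP tags only, and the input was also lower in SB than in DMSO, at 29 and 48 tags. The ratio of ChIP to input was 5.34 (3.82 to 7.62) in Activin, 3.81 (2.73 to 5.39) in DMSO and 3.46 (2.24 to 5.49) in SB. By this ratio DMSO and SB were close over the whole region. Activin was 1.34 times DMSO (1.08 to 1.67) with an adjusted exact p of 0.0544, just short of the threshold of 0.05. With every deposited tag counted the Activin and DMSO libraries had 277 and 195 tags there, and the same test passed (adjusted exact p = 0.00595).

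Most of the difference lay in the middle of the region. In the 500 bp around the highest pileup the Activin, DMSO and SB libraries had 106, 67 and 16 ChIP tags, and their inputs 10, 9 and 5. The other 2414 bp held 111, 82 and 64 tags. On the scale of normalised tags the central 500 bp were 4.91 times higher in Activin than in SB (2.89 to 8.90), and the rest of the region 1.28 times (0.936 to 1.78). The centre was placed where the pileup was highest, which was in the Activin library, so this contrast is given as a description. In the SB library the highest bin of 200 bp was 581 bp from the gene start, with 12 tags, against 11 in the bin at 1381 bp. The Activin and DMSO libraries held 9 and 12 tags in the bin at 581 bp. These counts are too close to place SB binding elsewhere.

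**Figure D1:**
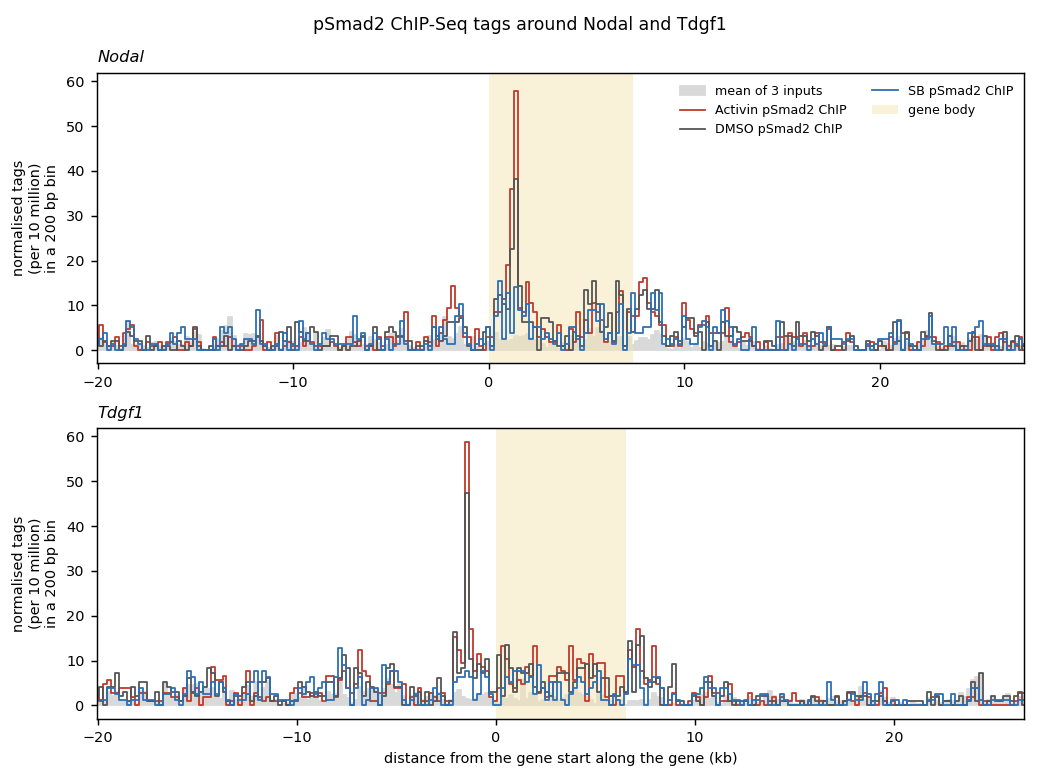
Normalised tags in bins of 200 bp around Nodal (top) and Tdgf1 (bottom), by distance from the gene start in kb, for the 3 pSmad2 ChIP libraries (lines) and the mean of the 3 inputs (grey); the shaded band is the gene. The highest bin of Nodal, in intron 1, holds 61, 37 and 11 tags for Activin, DMSO and SB, and that of Tdgf1, upstream of the gene, 62, 46 and 6.

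The other 4 Nodal regions were lower and less clearly ordered. Site 2 (chr10:60887042-60889786) had its highest pileup 544 bp past the end of the gene, and its ChIP counts for Activin, DMSO and SB were 124, 117 and 67. Over the whole region no comparison passed, with Activin 1.37 times SB (1.01 to 1.87, adjusted exact p = 0.135). With every deposited tag counted, Activin was 1.55 times SB (1.16 to 2.07, adjusted exact p = 0.0126) and SB 0.630 times DMSO (0.470 to 0.838, adjusted exact p = 0.0108). In its central 500 bp, placed where the Activin pileup was highest, the counts were 40, 29 and 8.

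Site 3 of Nodal (chr10:60878188-60879665), 1873 bp upstream of the gene start, was listed as a peak in Activin alone. Its counts in the same order were 58, 36 and 26, and the inputs, with 29, 26 and 32 tags, were closer to the DMSO and SB counts than to the Activin count. Over the whole region Activin was 1.65 times SB (1.02 to 2.73, adjusted exact p = 0.123). The central 500 bp held 28, 15 and 3 tags, but both the site and this stretch were picked by the Activin library, which favours a high Activin count.

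Site 4 (chr10:60885549-60886574), over coding sequence of Nodal and listed in DMSO alone, held 39, 51 and 30 tags in Activin, DMSO and SB. Site 5 (chr10:60890298-60892257), 2648 bp past the gene, held 54, 37 and 26. Neither passed in any comparison, and their Activin to SB ratios were 0.963 (0.583 to 1.61) and 1.54 (0.947 to 2.56). Site 5 was not in the SB list, so that its listing favoured a low SB count. With every deposited tag counted it had 74 tags in Activin against 27 in SB (ratio 2.03, 1.29 to 3.29), which is given without a p.

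The coreceptor gene Tdgf1 (ENSMUSG00000032494.8, chr9:110842114-110848662, minus strand) carried the widest region of the 6 genes, chr9:110846172-110850910, which covered the first exons and reached 2248 bp before the gene start. Its highest pileup was 1423 bp upstream of the gene start. The Activin, DMSO and SB libraries gave 246, 207 and 92 ChIP tags, or 233, 213 and 118 normalised tags. The inputs gave 45.0, 50.4 and 40.9 normalised tags. Here Activin and DMSO were close to each other and SB was low, while input differed little.

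Activin was 1.98 times SB (1.55 to 2.54, adjusted exact p = 1.02e-06) and SB was 0.553 times DMSO (0.428 to 0.710, adjusted exact p = 0.000321), both past the threshold. Activin was 1.10 times DMSO (0.907 to 1.32, adjusted exact p = 0.534). With every deposited tag counted the Activin to DMSO ratio was 1.24 (1.05 to 1.48) and its adjusted exact p was 0.0453. The 500 bp around the highest pileup held 84, 59 and 11 ChIP tags and 1, 7 and 5 input tags in Activin, DMSO and SB. SB was there 0.232 times DMSO (0.110 to 0.446), and in the remaining 4239 bp 0.681 times (0.513 to 0.899), again as a description, since the centre is where the Activin pileup was highest.

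Sites 5 and 3 of Tdgf1 also had a higher level in Activin than in SB, but were not in the SB list, so that their listing favoured this direction and the ratios are given without a p. Site 5 (chr9:110843050-110846133), within the gene and listed in Activin and DMSO, had 121, 92 and 41 tags in the 3 libraries, so that Activin was 2.19 times SB (1.52 to 3.20) and SB 0.555 times DMSO (0.374 to 0.810). Site 3 (chr9:110854952-110855959), 6784 bp upstream of Tdgf1 inside the neighbouring gene Lrrc2 and listed in Activin alone, had 35, 22 and 10 tags, and Activin was 2.59 times SB (1.26 to 5.87). This call was lost under GC scaling, and the inputs there were uneven, with 7, 24 and 15 tags for Activin, DMSO and SB, lowest where the ChIP count was highest.

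Sites 2, 4 and 6 of Tdgf1 passed in no comparison of tags counted once. Site 2 (chr9:110840237-110842633), just past the gene, had 99, 75 and 47 tags, and its Activin to SB ratio of 1.56 (1.09 to 2.26) had an adjusted exact p of 0.0597. It passed with every deposited tag counted, at 116 against 54 (adjusted exact p = 0.0215), and among regions made from peaks of at least 13 listed tags (adjusted exact p = 0.0483). Site 4 (chr9:110855976-110856800), also in Lrrc2 and listed in SB alone, had 20, 27 and 25 tags, and 23, 34 and 36 with every deposited tag counted. Site 6 (chr9:110839496-110839926) was small and listed in DMSO alone, with 3, 14 and 4 tags. Activin was 0.198 times DMSO there (0.0364 to 0.708), given without a p because the listing favoured a high DMSO count.

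**Figure D2:**
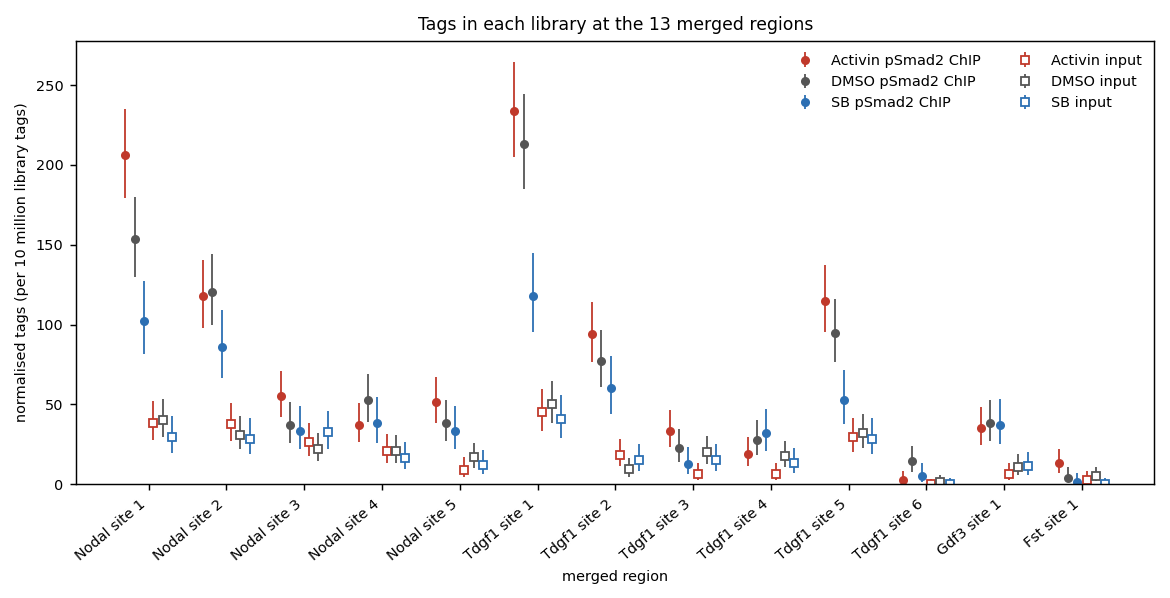
Normalised tags in each of the 6 libraries at the 13 merged regions (filled circles, pSmad2 ChIP; open squares, input), with 95% Poisson intervals of counting error. The Activin, DMSO and SB levels run from 206 to 102 at Nodal site 1 and from 233 to 118 at Tdgf1 site 1, and lie within each other's intervals at Gdf3 site 1.

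Gdf3 (ENSMUSG00000030117.4, chr6:122555421-122560105, minus strand), the ligand gene beside the germline and pluripotency gene Dppa3, had a single region in intron 1, chr6:122557603-122558998, that was listed in all 3 treatments. Its ChIP counts were 37, 37 and 29 tags, which are 35.1, 38.1 and 37.2 normalised tags, against 6.42, 10.9 and 11.2 in the inputs. The levels were nearly equal, and Activin was 0.945 times SB (0.566 to 1.59) and SB 0.975 times DMSO (0.579 to 1.63). The highest 200 bp bin was at 2204 bp from the gene start in DMSO and SB, on the run of alternating C and A, with 11 and 14 tags against 3 in Activin, and at 1804 bp in Activin, with 12 tags.

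The ratio of Activin to SB at Nodal site 1 was 2.13 times that at Gdf3 site 1 (95% interval 1.18 to 3.81, Fisher's exact test on the 4 tag counts, two-sided, p = 0.00775, adjusted over 3 pairs of sites 0.0124). The ratio at Tdgf1 site 1 was 2.10 times that at Gdf3 site 1 (1.17 to 3.72, exact p = 0.00827, adjusted exact p = 0.0124). The ratio at Nodal site 1 was 1.01 times that at Tdgf1 site 1 (0.704 to 1.46, exact p = 1). The 3 sites were paired after their values were seen. For Activin against DMSO none of the 3 pairs passed (smallest exact p = 0.156), nor did any for SB against DMSO (smallest exact p = 0.0439 for Tdgf1 and Gdf3, adjusted 0.132). With every deposited tag counted, the SB to DMSO ratio at Tdgf1 site 1 was 0.520 times that at Gdf3 site 1 (0.308 to 0.888, adjusted exact p = 0.0341). In the central 500 bp the SB to DMSO ratios at Nodal site 1 and Tdgf1 site 1 were 0.197 (0.0733 to 0.528) and 0.154 (0.0528 to 0.443) times that at Gdf3 site 1, where the centre lay at the highest pileup of Activin for Nodal and Tdgf1 and of SB for Gdf3.

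Fst (ENSMUSG00000021765.6, chr13:115242470-115249159, minus strand), the antagonist gene, had 1 small region, chr13:115237367-115237785, 4905 bp past its end and listed in Activin alone. It held 14, 4 and 1 ChIP tags and 3, 6 and 0 input tags for Activin, DMSO and SB. The last allows up to 3.07 normalised tags in the SB input, the level of 3 tags. Activin was 10.4 times SB (1.58 to 438), a ratio resting on a single SB tag, and 3.23 times DMSO (1.01 to 13.5), and both are given without a p because the site was picked by its Activin tags. In the listed peaks of the Activin treatment this one ranked 3893 of 5094 by its tags.

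The Activin subunit genes had no listed peak in any treatment. Over the 55.4 kb window of Inhba (ENSMUSG00000041324.7, chr13:16103684-16119044, plus strand) ChIP was 1.14 times input in Activin (0.919 to 1.40), 1.08 times in DMSO (0.883 to 1.32) and 0.974 times in SB (0.773 to 1.23). The highest 200 bp bins of Inhba held 6, 5 and 4 tags, at a different place in each library. Over the window of Inhbb (ENSMUSG00000037035.5, chr1:121312042-121318825, minus strand) the ChIP to input ratios were 0.895 (0.778 to 1.03), 0.948 (0.832 to 1.08) and 0.907 (0.783 to 1.05). The highest bins of Inhbb held 10, 7 and 7 tags in Activin, DMSO and SB. Every interval of these 6 ratios included 1, and at this depth a ratio of up to 1.40 at Inhba lay within counting error.

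**Figure D3:**
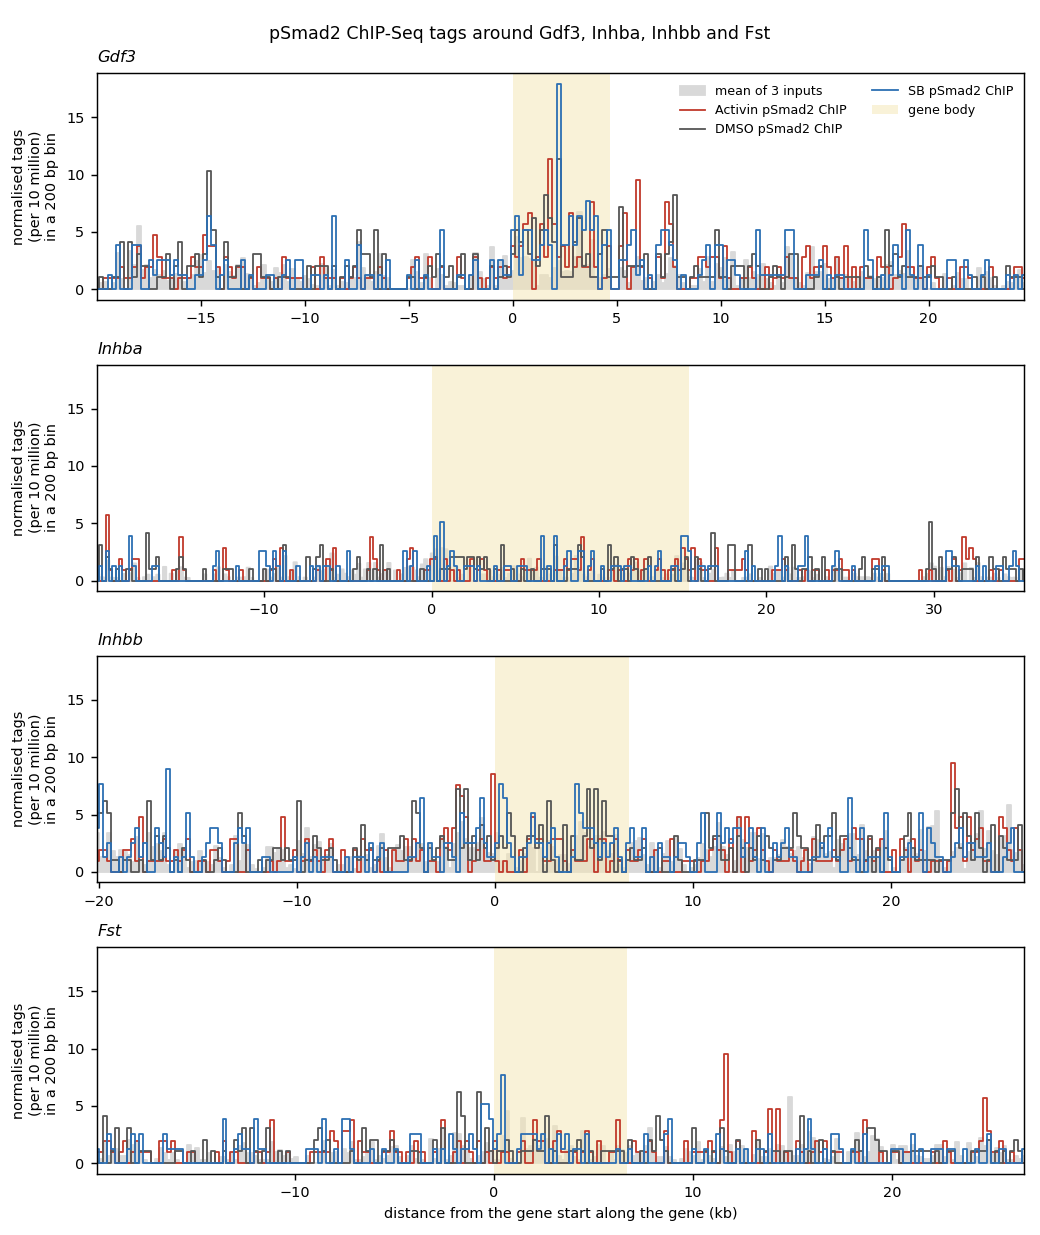
Normalised tags in bins of 200 bp around Gdf3, Inhba, Inhbb and Fst, by distance from the gene start in kb, with lines, grey area and shaded band as in the plot for Nodal and Tdgf1 and 1 common vertical axis. Gdf3 has its highest bin in intron 1, at 14 tags in SB, and the bins of Inhba hold at most 6 tags in any ChIP library.

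Taken over all 13 regions, none passed in Activin against DMSO (3 had an unadjusted p below 0.05), where 2.41% of the 12240 regions were higher in Activin and 7.17% lower. The median log2 ratio was 0.28 over the 13 and -0.29 over all regions. SB was below DMSO in 3 of 13, Nodal site 1 and Tdgf1 sites 1 and 5, and above in none, against 3.36% of all regions lower and 5.19% higher, with medians of -0.49 and -0.06. Tdgf1 site 5 was not in the SB list, which favoured a low SB count, so that this tally is no support for the direction. Activin was above SB in 5 of 13, Nodal site 1, Tdgf1 sites 1, 3 and 5 and Fst site 1, and below in none, against 4.83% higher and 12.9% lower, with medians of 0.64 and -0.31. Of these, only Nodal site 1 and Tdgf1 site 1 were listed in all 3 treatments, while Tdgf1 sites 3 and 5 and Fst site 1 were regions through lists other than that of SB, so that the tally is no support for the direction. The 3 comparisons share libraries, and the 11 regions of Nodal and Tdgf1 lie close together at 2 loci.

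Counting only the 500 bp around the highest pileup, 6 of 13 were higher in Activin than in SB (3.54% of all such stretches) and 2 of 13 lower in SB than in DMSO (1.83%), these 2 being Nodal site 1 and Tdgf1 site 1. In all of these the centre was the Activin pileup, which favours the counts, and they are given as a description. With every deposited tag counted, 3 of 13 passed in Activin against DMSO, Nodal site 1 and Tdgf1 site 1 being higher and Tdgf1 site 6 lower, against 7.25% of all regions higher and 19% lower. Tdgf1 site 6 was listed in DMSO alone, which favoured its direction. Input tags at the 13 regions passed in none of the 3 comparisons by the same exact test (an unadjusted p below 0.05 was seen at 2 in Activin against DMSO, at 1 in SB against DMSO and at 0 in Activin against SB).

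**Figure D4:**
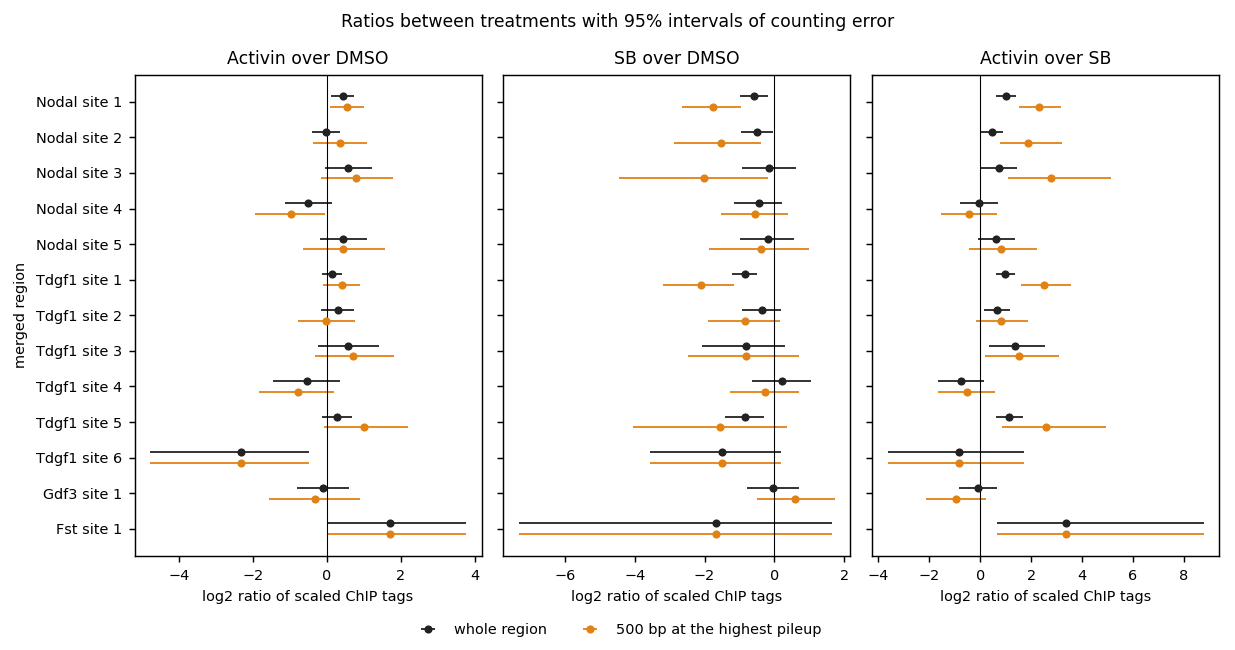
Log2 ratios of scaled ChIP tags at the 13 regions for Activin over DMSO, SB over DMSO and Activin over SB, with 95% intervals of counting error, over the whole region (black) and over 500 bp at the highest pileup (orange). In the central 500 bp the Activin to SB ratios at Nodal site 1 and Tdgf1 site 1, 4.91 and 5.66, are above the whole-region ratios of 2.01 and 1.98.

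In bins of 200 bp, ChIP was tested against the input of the same treatment by a one-sided exact binomial test over all bins with at least 5 tags. In the windows of the 6 genes the Activin, DMSO and SB libraries had 5, 3 and 0 passing bins, where 0.0661%, 0.0948% and 0.13% of all tested bins passed. An unadjusted p below 0.05 was seen in 66 of 363, 59 of 428 and 25 of 302 tested bins of these windows. The 2 adjoining bins in intron 1 of Nodal passed in both Activin and DMSO, and the bin 1439 bp upstream of Tdgf1 likewise. Its 62 tags in Activin stood against 0 in the Activin input, and its 6 in SB against 0 in the SB input. Passing in Activin alone were the next bin towards the Tdgf1 gene start and a bin at Tdgf1 site 2, each with 18 ChIP tags and no input tag. Requiring at least 10 tags in a bin left fewer bins to test. In SB 3 of 35 bins in the 6 windows then passed, against 2673 of 62386 over all bins.

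Counted over whole gene windows, the ChIP levels of Nodal were 820, 763 and 674 normalised tags for Activin, DMSO and SB. Those of Tdgf1 were 792, 804 and 609. Of the 6 windows, tested with all 22350 coding genes, none passed in Activin against DMSO (0.353% of genes higher, 2.65% lower), and 1 had an unadjusted p below 0.05. Tdgf1 was lower in SB than in DMSO, at 0.757 times (0.674 to 0.849, adjusted exact p = 0.000196), where 1.44% of genes were lower and 7.73% higher. Nodal and Tdgf1 were higher in Activin than in SB, at 1.22 times (1.09 to 1.36, adjusted exact p = 0.00447) and 1.30 times (1.16 to 1.46, adjusted exact p = 0.000111), where 2.21% of genes were higher and 15.6% lower. The windows of Gdf3, Inhba, Inhbb and Fst passed in no comparison.

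The same test was read for 24 other genes of the pathway, its receptors, Smads, inhibitors and proteases. In Activin against DMSO 3 of 24 were higher and 0 lower, namely Lefty1 and Lefty2, which encode secreted Nodal inhibitors, and Smad7, which encodes an inhibitory Smad. Lefty1 was 1.44 times DMSO (1.33 to 1.56, adjusted exact p = 6.19e-17), Lefty2 1.31 times (1.20 to 1.43) and Smad7 1.20 times (1.10 to 1.32). The windows of Lefty1 and Lefty2 overlap, so these are not independent. In Activin against SB the same 3 were higher, by 4.05, 3.06 and 1.59 times, and 8 were lower, led by Gdf1, Acvr2b and Acvr1b.

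In SB against DMSO 4 of 24 were lower, led by Lefty1 at 0.356 times (0.313 to 0.406), Lefty2 at 0.429 (0.376 to 0.488) and Smad7 at 0.754 (0.673 to 0.843), and 6 were higher, led by the ligand gene Gdf1, by Inha, which encodes the inhibin α subunit, and by Furin, a protease that cleaves ligand precursors. The ratio of the Nodal window, 0.883 (0.789 to 0.989), stood above those of both Lefty windows, with an interval that did not overlap theirs. A window also holds the tags between sites, so these ratios do not compare single sites. In the central 500 bp of Nodal site 1, placed at the Activin pileup, SB was 0.297 times DMSO (0.161 to 0.518). When the libraries were scaled by GC content, 0 of the 24 were higher in SB than in DMSO instead of 6, and 4 lower, with Pmepa1 in the place of Skil, and 4 rather than 8 were lower in Activin than in SB, with Acvr1b becoming lower in Activin than in DMSO, whereas the numbers called among the 6 genes stayed at 0, 1 and 2. The same scaling took the share of all gene windows higher in SB than in DMSO from 7.73% to 0.483%, and of those lower from 1.44% to 0.125%.

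**Figure D5:**
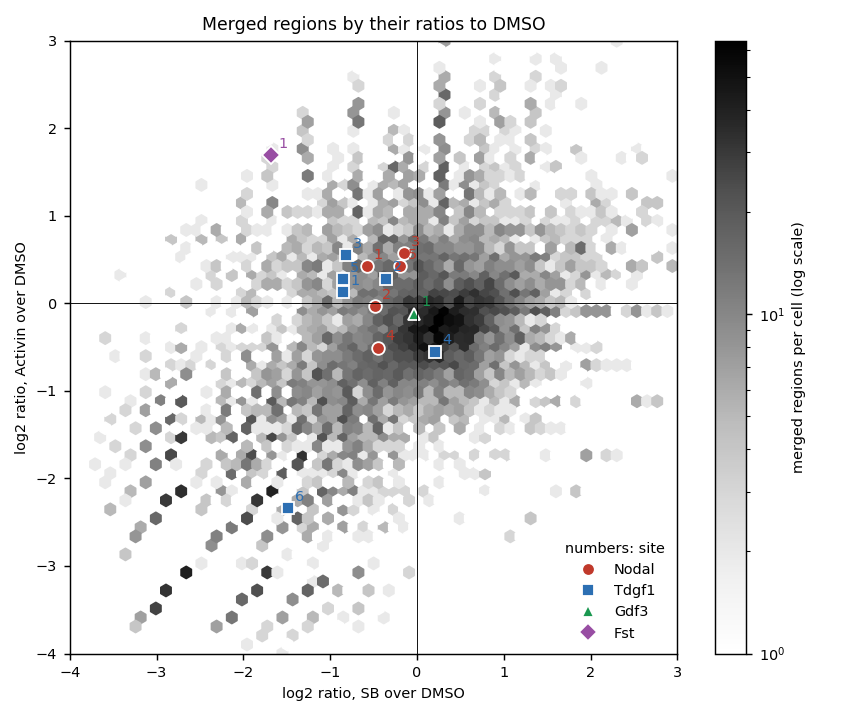
Log2 ratio of Activin over DMSO (vertical) against SB over DMSO (horizontal) at the merged regions with tags in all 3 ChIP libraries, as counts of regions per cell (grey, log scale), with the 13 sites marked by gene and number. Nodal site 1 is at 0.42 and -0.58, Tdgf1 site 1 at 0.13 and -0.85, and Gdf3 site 1 at -0.12 and -0.04; both ratios share the DMSO library, so the slope of the cloud is not a result.

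Among regions with at least as many tags in the libraries compared, the Activin to SB ratio of Nodal site 1 ranked 8 of 224 and that of Tdgf1 site 1 ranked 6 of 185, counted from the highest. For SB against DMSO, Nodal site 1 ranked 359 of 367 and Tdgf1 site 1 229 of 233, near the low end. For Activin against DMSO, where neither site passed, they ranked 6 of 182 and 8 of 118 from the highest. The median log2 ratio of all regions was -0.29 in that comparison. The regions whose pair of log2 ratios to DMSO was nearest to that of Nodal site 1, out of 232 with as many ChIP tags, lay near Pgpep1 (0.29 for Activin and -0.63 for SB), Slc38a7 (0.26 and -0.45) and Tdgf1, where the third was Tdgf1 site 1 itself. For Tdgf1 site 1, out of 172, they lay near Pgpep1, Pml (-0.22 and -0.23) and Mllt6 (-0.12 and -0.16), at Euclidean distances of 0.276, 0.715 and 0.737, so that only the first was close.

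The peak lists carry the authors' own tag numbers. The highest listed peak of Nodal had 210 tags in the Activin list, 130 in the DMSO list and 77 in the SB list, with ranks of 80 of 5094, 165 of 7423 and 570 of 4759. The peak upstream of Tdgf1 had 161, 126 and 45 tags, with ranks of 132, 172 and 1280. In the SB list the highest peak of Tdgf1 was another, listed at 310 bp inside the gene with 53 tags and a rank of 1016. For Gdf3 the listed tags were 39, 34 and 27. These numbers were not scaled between the libraries, and the position in the DMSO and SB lists was mostly the end of the peak and not its top.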

How the data were processed

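The deposited files were 6 tables of aligned tags (start, end and strand of each 35 bp tag) and 3 peak lists, each line a peak's position and its tag count, which the authors made with MACS at a p-value cutoff of 1e-05. Sources used here do not give the aligner. The labels name mm9, and on 19 of 20 chromosomes all tags lay within the mm9 length. The lists give no peak bounds, so peaks were rebuilt from the tags by the MACS clustering rule, and 84.3% to 87.3% of peaks per list came within 10% of the listed number of tags. Tags were moved to the middle of a 200 bp fragment and counted once per position and strand, since amplified copies are not independent molecules. Counts of a pair of libraries were set against their tag totals in an exact binomial test, and p-values were adjusted (Benjamini-Hochberg) over every merged region, gene window or bin, with a threshold of 0.05 (Python 3.11.15, scipy 1.17.1). Ratio intervals are 95% Clopper-Pearson intervals and level intervals are Poisson, both for counting error only. A count of 0 was given the level of 3 tags as its limit. Annotation was GENCODE vM1.

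All 6 genes were named, with their 3 highest sites in full and the others by counts, along with a list of 24 pathway genes of which at most 3 per direction were named by smallest p; sequences were read from the mm9 genome, and those of some sites are not reported here. The genes, lists and tests were chosen with earlier results of these data known. The tests were checked on simulated data with counting error only and large planted changes. That check does not cover smaller changes or the spread between cultures.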

Additional observations from a re-analysis of the deposited data

How the results depend on the processing

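With all deposited tags counted instead of 1 per position and strand, 3 of the 13 regions passed in Activin against DMSO instead of 0. Of all regions 7.25% were then higher in Activin and 19% lower. In Activin against SB 9 regions passed instead of 5. Of these, 8 were higher and 1, Tdgf1 site 4, lower, against 9.13% and 17.3% of all regions. In SB against DMSO 2 of the 6 gene windows were lower instead of 1, where 1153 of all 22350 were lower and 1915 higher. Some of these regions were not listed in every treatment, which favoured the direction of their calls. At a threshold of 0.001, 1 region was lower in SB than in DMSO, where 43 of all 12240 were lower and 37 higher. In Activin against SB 3 regions were higher, where 106 of all were higher and 251 lower. For gene windows in Activin against SB 1 was higher, where 96 of all 22350 were higher and 1181 lower. The Activin bins passing were 3, where 281 of all 1045617 tested bins passed. With 10 kb on each side 2 gene windows were lower in SB than in DMSO, where 261 of all 22350 were lower and 1131 higher. With 50 kb 1 was higher in Activin than in SB, where 808 of all were higher and 5104 lower. Bins with at least 10 tags gave 10, 12 and 3 passing bins in Activin, DMSO and SB, and 500 bp bins gave 6 in DMSO. The other 56 recomputed counts stayed within 1.5 times. Ratios were recomputed for the 3 highest sites of each gene and for pairs of sites. Of these ratios 186 kept their direction and side of the threshold, 12 passed newly and 6 no longer passed. The threshold of 0.001, peaks of at least 13 listed tags and a stricter overlap for joining peaks left each site ratio unchanged. Under these settings a kept direction is therefore no check. Scaling by GC content, which for gene windows was chosen after seeing the data, moved the median log2 ratio of all regions from -0.06 to -0.20 in SB against DMSO and from -0.31 to -0.17 in Activin against SB. Ratios that turned direction were uncalled in both settings: in the central 500 bp Nodal site 2 (log2 0.35) and Tdgf1 site 2 (-0.021) for Activin against DMSO and Gdf3 site 1 (0.60) for SB against DMSO; with all tags Gdf3 site 1 (0.0062); and the ratio of Nodal site 1 to Tdgf1 site 1 for Activin against SB (0.891 with all tags, 0.868 in 500 bp). The causes were not tested.

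No paired analysis was possible because each treatment had 1 ChIP and 1 input library and the labels give no replicate numbers; leaving out a replicate was not possible either. Depth limits the small sites most: at Fst site 1 and Tdgf1 site 6 a few tags set the ratio. At Inhba, ChIP to input ratios up to the upper interval bounds lay within counting error.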
